A study of Mus musculus with 2 samples.

Results

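Genes of the unfolded protein response were followed across the 11 cell clusters of 2 mouse tumors grown from dysplastic stem cells. The 10 genes were fixed by name, and all 10 were found among the 18319 genes that the authors' deposited table of cluster genes names. On one side stood 6 genes of protein folding and disposal in the endoplasmic reticulum (ER): Hspa5, Dnajb9, Sdf2l1, Pdia4, Creld2 and Herpud1. On the other stood the transcription factors Atf4, Ddit3 and Xbp1 together with the pseudokinase Trib3, 4 genes in all. Single cells were captured on the inDrop droplet platform from 2 tumors of female NuJ mice, a cystic adenocarcinoma taken 10 weeks and a tubular one taken 13 weeks after injection of cells the labels call DP-DSC. Each tumor type had 1 library. The table gives no value per library, so neither an error nor a comparison of the tumor types was possible. How its p-values were made is not stated.

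When unfolded proteins build up in the ER, 3 membrane sensors respond. IRE1 (Ern1) splices the Xbp1 transcript, PERK (Eif2ak3) slows translation while favouring that of Atf4, and ATF6 is cut to release a transcription factor. Spliced XBP1 and ATF6 switch on chaperones and disposal factors, and ATF4 switches on amino acid genes and Ddit3, whose product CHOP is linked to cell death. Secretory cells such as the mucous cells of the stomach keep parts of this programme active to fold what they secrete. A gene-level value does not separate spliced from unspliced Xbp1, and Atf4 is controlled largely at translation, which RNA does not show.

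ER stress elements are the promoter motifs through which ATF6 and XBP1 reach chaperone genes. The promoters below show which members hold an exact match. The letters are the 250 bases before the start of each gene from RefSeq, build GRCm38.p6, written 5′ to 3′ along the gene, and capitals mark matches to the motifs searched. Hspa5, Creld2 and Herpud1 are shown because they held an exact match to such an element. Ddit3 is shown as an example without an exact match. Dnajb9, Pdia4, Atf4 and Xbp1 were also raised in a cluster, as described below, and held no exact match to any motif searched.
Hspa5 (chr2:34771840-34772089, plus strand): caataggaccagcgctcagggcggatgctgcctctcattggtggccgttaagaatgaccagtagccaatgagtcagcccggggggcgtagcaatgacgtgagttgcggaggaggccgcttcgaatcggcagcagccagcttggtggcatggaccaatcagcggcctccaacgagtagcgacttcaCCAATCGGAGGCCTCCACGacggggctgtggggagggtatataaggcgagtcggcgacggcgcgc
Creld2 (chr15:88819396-88819645, plus strand): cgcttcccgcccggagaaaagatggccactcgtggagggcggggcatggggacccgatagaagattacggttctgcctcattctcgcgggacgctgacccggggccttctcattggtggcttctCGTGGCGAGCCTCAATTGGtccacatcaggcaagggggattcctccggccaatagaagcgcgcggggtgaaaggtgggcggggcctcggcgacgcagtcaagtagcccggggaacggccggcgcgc
Herpud1 (chr8:94386179-94386428, plus strand): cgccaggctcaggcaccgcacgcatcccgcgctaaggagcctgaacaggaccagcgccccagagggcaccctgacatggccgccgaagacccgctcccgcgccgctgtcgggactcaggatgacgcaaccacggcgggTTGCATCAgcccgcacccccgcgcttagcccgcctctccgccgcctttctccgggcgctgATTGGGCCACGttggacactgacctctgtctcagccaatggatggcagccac
Ddit3 (chr10:127290543-127290792, plus strand): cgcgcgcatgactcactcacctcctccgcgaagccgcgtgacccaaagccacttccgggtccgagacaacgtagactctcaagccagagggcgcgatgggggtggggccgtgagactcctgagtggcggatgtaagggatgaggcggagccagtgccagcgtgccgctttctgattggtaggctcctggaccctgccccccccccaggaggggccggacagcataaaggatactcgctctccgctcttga

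Each window of 300 bases, the 250 above and the first 50 of the transcript, was searched on both strands for 4 motifs. The ER stress element, CCAAT followed after 9 bases by CCACG, was present in Hspa5, 65 to 47 bases before the start, and in Creld2 on the opposite strand, 126 to 108 bases before it. It was found in 0.119% of 32851 RefSeq promoter windows of the same length. Herpud1 held the shorter form, ATTGG and CCACG with 1 base between them, 52 to 42 bases before its start, a motif seen in 0.0365% of windows. The XBP1 element TGACGTGG was in none of the 10 members and in 0.676% of all windows. The amino acid response motif TGATGNAA, read by ATF4 with its partners, was in Herpud1 (capitals farther from the start) and in Trib3, where it lay just inside the transcript, against 3.97% of all windows. No match overlapped another. Thus 3 of 6 folding genes and 0 of 4 stress regulators held an exact match to either form of the ER stress element. Near matches were not counted. The Ddit3 window holds such a near match on the opposite strand, CCAAT followed after 9 bases by GCACG. The difference between the sides therefore holds for exact letters only. These are matches of letters and not measured sites. Windows and distances use RefSeq starts, while gene positions given below are those of the GENCODE annotation, whose starts can differ. The 250 bases shown for Hspa5 and Ddit3 run past the GENCODE starts, 34771970 and 127290774. The match in Hspa5 lies past its GENCODE start.

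Below, listed means that a cluster's part of the table names the gene, which needs a fold above 1.5. Raised means a fold of 2 or more together with a p of 0.05 or less. The group that each fold is measured against is not written in the table. A gene that is not listed was at or below 1.5 or was not reported, so its level is unknown and falls cannot be seen. The clusters are called by number with their marker genes. All 8 macrophage markers were raised in cluster 4, 6 of 8 neutrophil markers in cluster 10, 8 of 8 fibroblast markers in cluster 11, and 6 of 7 surface mucous markers in clusters 6 and 9. Cluster 8 had all 8 macrophage and 7 of 8 dendritic markers raised, cluster 2 had 5 of 6 erythroid markers, and clusters 1, 3, 5 and 7 stay without a name. Of 6 goblet markers, clusters 6 and 9 each listed 4, with 3 raised in cluster 6 and 2 in cluster 9. The labels call all cells tumor cells, while markers of blood and stromal cells led several clusters.

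Over all clusters the 10 genes were neither listed nor raised more often than genes at large. Of 110 pairs of a member and a cluster, 25 were listed (22.7%), against 23.3% of all pairs of a named gene and a cluster. Raised pairs numbered 9 (8.18%), against 10.0% of all pairs. The members differed in where they appeared. No member was listed in clusters 1, 7 and 9, and the 25 pairs fell in the other 8 clusters. Cluster 10 alone held 7 of the 25 pairs. Without it, 18 of 100 pairs were listed (18.0%), against 23.7% of all pairs.

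**Figure D1:**
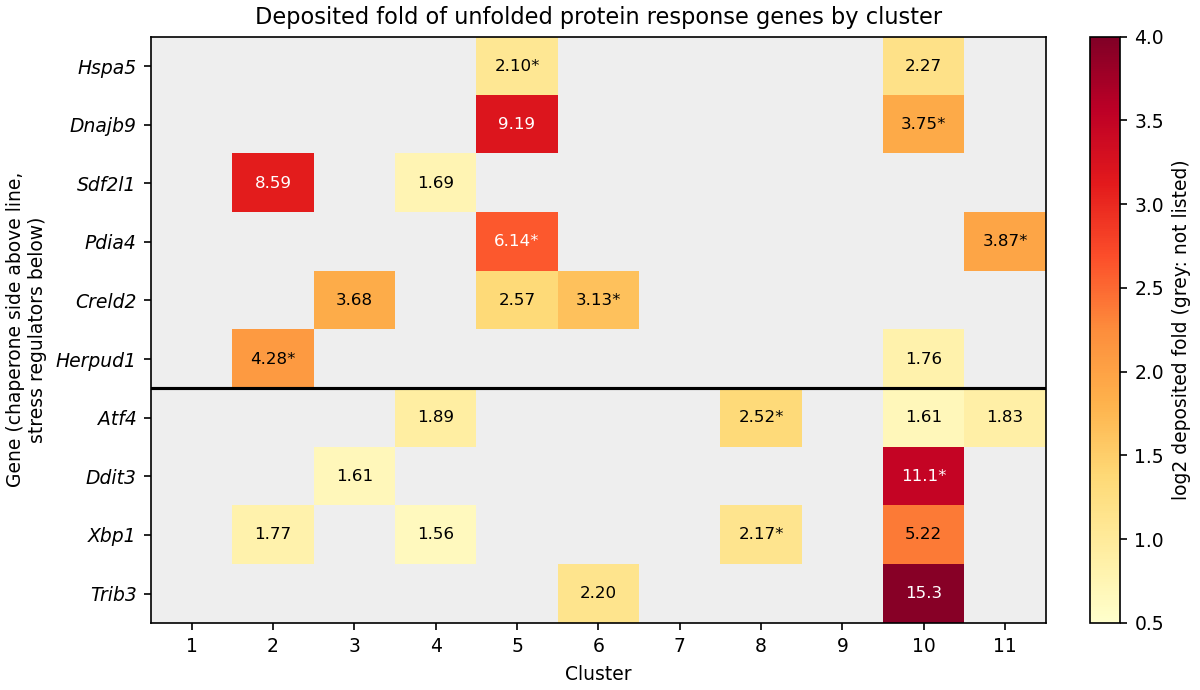
Deposited fold of each gene (rows) in each of the 11 clusters (columns), coloured on a log2 scale, with the linear fold printed, an asterisk where the gene was raised and grey where it was not listed. The line parts the 6 folding genes from the 4 stress regulators; cluster 5 is filled only above the line, cluster 8 only below it, and cluster 10 on both sides.

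The ER chaperones came first by role. Hspa5 encodes BiP, the main Hsp70 chaperone of the ER lumen, which also holds the sensors inactive. It lies on chromosome 2 from 34771970 to 34777547 on the plus strand of mm10. In the authors' deposited table Hspa5 was listed in 2 clusters, with folds of 2.10 in cluster 5, where it was raised, and 2.27 in cluster 10, where it was not. Both folds were low for their clusters. In cluster 5, 24.5% of the listed genes had a smaller fold than Hspa5, and in cluster 10, 23.2%.

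Dnajb9 encodes ERdj4, a J-domain partner of BiP, on chromosome 12 from 44205559 to 44210326. It was listed in the same clusters as Hspa5. Its folds per the authors' deposited table were 9.19 in cluster 5, not raised, and 3.75 in cluster 10, raised. The larger fold was therefore the one that missed the p threshold.

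Sdf2l1, an ER lumen protein that works with BiP, lies on chromosome 16 from 17130138 to 17132383. The authors' deposited table gave it a fold of 8.59 in cluster 2 and of 1.69 in cluster 4, and it was raised in neither. The fold in cluster 2 was larger than those of 77.2% of the genes listed there, and the fold in cluster 4 was larger than those of 10.8%.

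Pdia4 encodes ERp72, a disulfide isomerase that forms and rearranges disulfide bonds, on chromosome 6 from 47796141 to 47813430. It was the only member raised in 2 clusters on the folding side. In the authors' deposited table its fold was 6.14 in cluster 5 and 3.87 in cluster 11, the fibroblast-like cluster. Both exceeded the median of the genes listed in the same cluster, which was 3.16 in cluster 5 and 3.27 in cluster 11.

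Creld2, an ER-resident protein with isomerase activity, lies on chromosome 15 from 88819646 to 88826683. It was the folding gene listed in the most clusters, 3 in all. Its folds per the authors' deposited table were 3.68 in cluster 3, 2.57 in cluster 5 and 3.13 in the surface-mucous-like cluster 6, and it was raised in cluster 6 alone. It was not listed in cluster 9.

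Herpud1 encodes an ER membrane protein of the disposal machinery that returns misfolded proteins to the cytosol, on chromosome 8 from 94386438 to 94395377. It had a fold of 4.28 in cluster 2, raised, and of 1.76 in cluster 10, not raised, per the authors' deposited table. In cluster 2 it stood beside Sdf2l1. Of the markers in this cluster, 5 of 6 erythroid ones were raised, at folds up to 11.8, while 4 of 8 neutrophil markers were listed at up to 52.9 and none raised, per the authors' deposited table. Their part in the result was not tested. An antisense gene overlaps Herpud1 by 535 bases, and the counting by strand is not given in the sources used here.

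Among the regulators, Atf4, the transcription factor of the integrated stress response, lies on chromosome 15 from 80255184 to 80257541. It was listed in 4 clusters, more than any folding gene, while 21.9% of all named genes were listed in 4 or more. The authors' deposited table gave it folds of 1.89 for cluster 4, 2.52 for cluster 8, 1.61 for cluster 10 and 1.83 for cluster 11. Only that in cluster 8 was raised. All 4 folds were below the median fold of the genes listed in the same cluster.

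Xbp1, the transcription factor made active by IRE1, lies on chromosome 11 from 5520659 to 5525893. It too was listed in 4 clusters, and the authors' deposited table gives 1.77 for cluster 2, 1.56 for cluster 4, 2.17 for cluster 8 and 5.22 for cluster 10 as its folds. It was raised in cluster 8. The largest of these folds, in cluster 10, had a p above the threshold. Atf4 and Xbp1 shared 3 clusters: the macrophage-like cluster 4, cluster 8 with its macrophage and dendritic markers, and the neutrophil-like cluster 10.

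Ddit3, which encodes CHOP, lies on chromosome 10 from 127290774 to 127296288, and the annotation holds 2 overlapping records under that symbol. Its fold per the authors' deposited table was 11.1 in cluster 10, raised, and 1.61 in cluster 3, not raised. In cluster 10 this exceeded the folds of 81.9% of the listed genes. Mars, on the opposite strand, overlaps Ddit3 by 68 bases and was listed in no cluster.

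Trib3 encodes a pseudokinase induced by ATF4 and CHOP that restrains them, on chromosome 2 from 152337422 to 152344032. Its folds were 15.3 in cluster 10 and 2.20 in cluster 6 per the authors' deposited table, and neither was raised. The fold in cluster 10 was the largest of all 25 pairs and exceeded those of 87.4% of the genes listed there.

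**Figure D2:**
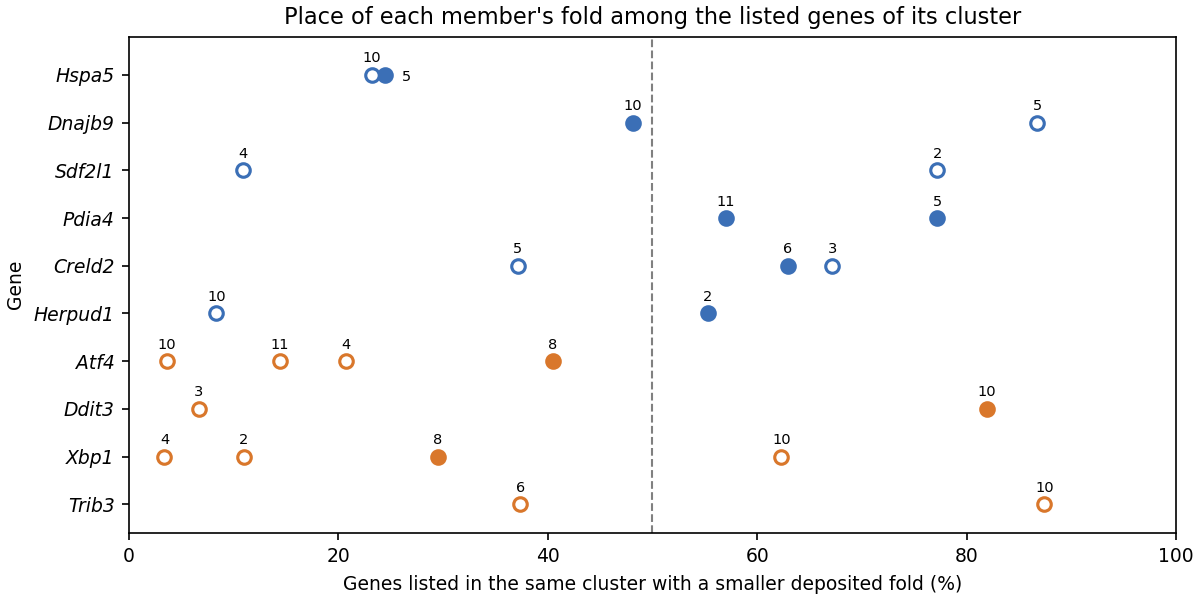
For each listed pair, the percentage of genes listed in the same cluster that had a smaller deposited fold (x axis), by gene (y axis). Numbers give the cluster, filled circles are raised pairs, blue marks the folding side and orange the regulators, and the dashed line is the middle of the listed genes; 7 blue and 3 orange points lie to its right, the orange ones all from cluster 10.

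The chaperone side and the regulator side were then set side by side. Of 66 pairs of a folding gene and a cluster, 13 were listed (19.7%) and 6 raised (9.09%). Of 44 pairs of a regulator and a cluster, 12 were listed (27.3%) and 3 raised (6.82%). The 6 raised pairs of folding genes were spread over 5 clusters, while the 3 of the regulators came from 2. The median fold over listed pairs was 3.68 for the folding genes and 2.03 for the regulators, beside 2.91 for all listed pairs per the authors' deposited table. With 1 table and no replicates, the difference between the sides could not be tested.

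Among the members, cluster 5 held folding genes without regulators. Hspa5, Dnajb9, Pdia4 and Creld2, 4 of the 6 folding genes, were listed there with folds of 2.10 to 9.19 per the authors' deposited table, against 20.6% of all named genes. Hspa5 and Pdia4 were raised, against 4.32% of all genes; 1 of them remained at a fold of at least 3, Pdia4, and 1 at a p of at most 0.01, Hspa5. None of the 4 regulators was listed. Markers in this cluster were mixed: 3 of 6 mast cell markers were listed and 2 raised, Cpa3 and Mcpt4, and 5 of 8 general epithelial markers were listed with Cdh1 raised. Their part in the result was not tested.

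Cluster 8 was the reverse. Atf4 and Xbp1 were listed and raised, 2 of the 4 regulators, at folds of 2.52 and 2.17 per the authors' deposited table, against 26.4% of all genes listed and 6.36% raised. None of the 6 folding genes was listed in it. Both folds lay below the median of 2.97 for the cluster. Of the T and NK cell markers, 5 of 7 were listed in cluster 8, at folds up to 46.3 per the authors' deposited table, and Nkg7 and Cd8a were raised. The part of the markers in the result was not tested. The macrophage-like cluster 4 listed the same regulators at smaller folds and the folding gene Sdf2l1 at 1.69 per the authors' deposited table. There 31.5% of all genes were listed and 18.6% raised, and no member was raised, while 3 passed at a fold threshold of 1.5.

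In the neutrophil-like cluster 10 both sides were listed, the regulators with the larger folds. All 4 regulators and 3 of 6 folding genes were listed, against 18.9% of all genes. Trib3, Ddit3 and Xbp1, at 15.3, 11.1 and 5.22 per the authors' deposited table, exceeded the cluster's median of 3.92. Dnajb9, Hspa5 and Herpud1, at 3.75, 2.27 and 1.76 per the authors' deposited table, did not, and neither did Atf4 at 1.61. Raised were Ddit3 and Dnajb9 alone, 2 of 10, against 4.90% of all genes. The cluster also listed 8 of 8 macrophage markers with 4 raised, and 3 of 8 dendritic markers were raised. Of the T and NK cell markers, 5 of 7 were raised. Folds of the listed ones reached 111, beside 118 for the neutrophil markers, per the authors' deposited table. Of 8 B and plasma cell markers, 1 was listed and raised, Ighm with a fold of 16.7 per the authors' deposited table. The part of these markers in the result was not tested.

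Elsewhere the members were few. Cluster 2 listed 3 members, Sdf2l1, Herpud1 and Xbp1, against 9.07% of all genes, and raised 1 (2.89% of all genes). Cluster 3 listed Creld2 and Ddit3, against 29.9%, and raised neither, where 733 of 18319 genes were raised. Cluster 6 listed Creld2 and Trib3, against 36.4%, and raised Creld2 (20.3%). Cluster 11 listed Pdia4 and Atf4, against 25.7%, and raised Pdia4 (17.0%). The surface-mucous-like cluster 9 was the longest list, with 38.9% of all genes listed and 26.6% raised, and it held 0 of the 10 members. Clusters 1 and 7 listed 6.34% and 12.1% of all genes and also held 0 (1.82% and 3.42% raised).

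**Figure D3:**
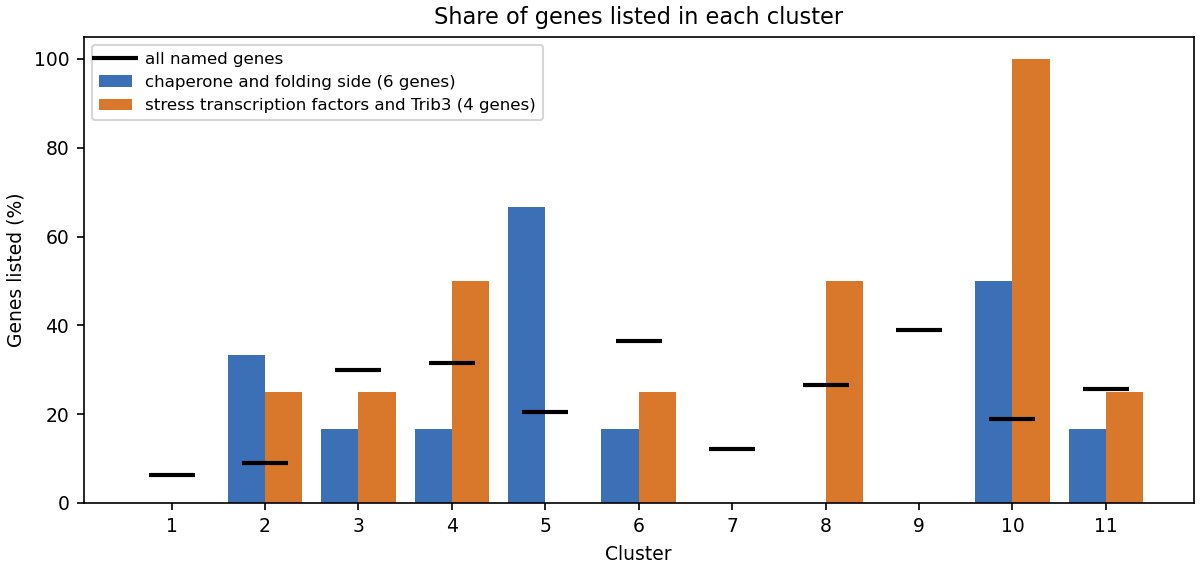
Percentage of the 6 folding genes (blue bars) and of the 4 stress regulators (orange bars) listed in each cluster, with black dashes for all 18319 named genes. Blue alone rises above the dash in cluster 5, orange alone in clusters 4 and 8, and both in clusters 2 and 10; clusters 1, 7 and 9 have no bar.

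Other genes of the pathway were counted from wider lists that hold none of the 10 members. Of 18 further ER chaperones and folding enzymes, all were named in the table and 12 were raised in at least 1 cluster, as were 78.0% of all named genes. By pairs of a gene and a cluster, 11.1% of this list were raised, against 10.0% of all pairs. The fibroblast-like cluster 11 raised 8 of the 18, against 17.0% of all genes. Among them were the thioredoxin-like Txndc5 at 4.55, the Hsp70-like Hyou1 at 4.05 and the lectin chaperone Calr at 3.60 per the authors' deposited table. Cluster 9 raised 5 of the 18, although it held no member. These were Cnpy2 at 4.71, the BiP exchange factor Sil1 at 2.69, the Hsp90 chaperone Hsp90b1 at 2.46, Hyou1 at 2.42 and the reductase Dnajc10 at 2.10 per the authors' deposited table. The share in cluster 9 was close to the 26.6% of all genes raised there. In cluster 10, 9 of the 18 were listed and 1 was raised, against 18.9% and 4.90% of all genes. The raised gene was the disulfide oxidase Ero1lb, with a fold of 14.9 per the authors' deposited table. Cluster 5 listed 2 of the 18 and raised 0, against 20.6% and 4.32% of all genes. Cluster 8 listed 3 of the 18 and raised 0, against 26.4% and 6.36% of all genes.

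Of 15 further genes of ER-associated degradation, 13 were raised in at least 1 cluster, as were 78.0% of all named genes. By pairs of a gene and a cluster, 12.7% were raised, against 10.0% of all pairs. Cluster 7, which held no member, raised 2 of the 15, against 3.42% of all genes. These were the membrane protein Selenos at 7.33 and the ligase adaptor Sel1l at 6.75 per the authors' deposited table. Clusters 4 and 9 each raised 5 of the 15, against 18.6% and 26.6% of all genes. Cluster 10 listed 4 of the 15 and raised 0, against 18.9% and 4.90% of all genes.

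The sensors and related factors formed a list of 12 genes. Of these, 10 were raised in at least 1 cluster, as were 78.0% of all named genes. Of the list's pairs, 12.1% were raised, against 10.0% of all pairs. Clusters 6, 9 and 11 each raised 4 of the 12, against 20.3%, 26.6% and 17.0% of all genes. Clusters 8 and 10 raised 0, where 6.36% and 4.90% of all genes were raised. Ern2, the IRE1 form of mucous epithelia, was raised in clusters 6 and 9 at 3.95 and 5.13 per the authors' deposited table. It was also listed in cluster 3 at 3.77 per the authors' deposited table, and not raised. Cluster 3 listed 6 of 7 surface mucous markers and raised 3. The PERK gene Eif2ak3 was raised in clusters 6 and 9, at 4.82 and 2.78 per the authors' deposited table. The other IRE1 gene, Ern1, was raised in cluster 5 at 2.33 per the authors' deposited table. Creb3l1 and Creb3, membrane-bound transcription factors of the ATF6 kind, were raised in cluster 11 at 6.61 and 5.69 per the authors' deposited table. Creb3l1 was also raised in cluster 1 at 6.04, and Creb3 in cluster 6 at 2.21, per the authors' deposited table. Atf6 itself was raised in cluster 4 at 3.47 per the authors' deposited table. Both Atf6 and Ern1 had larger folds in cluster 10, at 4.34 and 2.98 per the authors' deposited table. Neither was raised there.

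A list of 22 genes of the integrated stress response held targets of ATF4 and kinases that act before it. Of these, 18 were raised in at least 1 cluster, as were 78.0% of all named genes. Of the list's pairs, 12.4% were raised, against 10.0% of all pairs. Cluster 10 raised 4 of the 22, against 4.90% of all genes: the phosphatase subunit Ppp1r15a at 15.8, the cystine transporter Slc7a11 at 9.21, and the transcription factors Atf3 at 9.13 and Cebpb at 8.72 per the authors' deposited table. Cluster 11 raised 8 of the 22, against 17.0% of all genes, led by enzymes of serine and one-carbon metabolism, Shmt2 at 11.4, Psat1 at 7.62 and Phgdh at 4.16 per the authors' deposited table. None of those 3 enzymes was listed in cluster 10, which lists 18.9% of all genes, and none of the 4 genes of cluster 10 was listed in cluster 11, which lists 25.7%. Other genes of the list were in both: the one-carbon enzyme Mthfd2 at 1.94 in cluster 10 and 3.18 in cluster 11, and the transcription factor Cebpg at 2.16 and 2.26 per the authors' deposited table. Of these clusters, both genes were raised in cluster 11. Cluster 8 raised 3 of the 22, against 6.36% of all genes. These were Atf3, Ppp1r15a and Cebpb, at 3.83, 3.23 and 2.52 per the authors' deposited table, beside Atf4 and Xbp1. All 3 are also known as early-response genes. The macrophage-like cluster 4 raised 7 of the 22, against 18.6% of all genes. Among them were Cebpb at 3.93, Atf3 at 2.24 and Slc7a11 at 2.15 per the authors' deposited table. Ppp1r15a was not listed there. In cluster 5, 2 of the 22 were raised, against 4.32% of all genes. These were Ppp1r15b at 7.72 and Stc2 at 3.74 per the authors' deposited table.

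**Figure D4:**
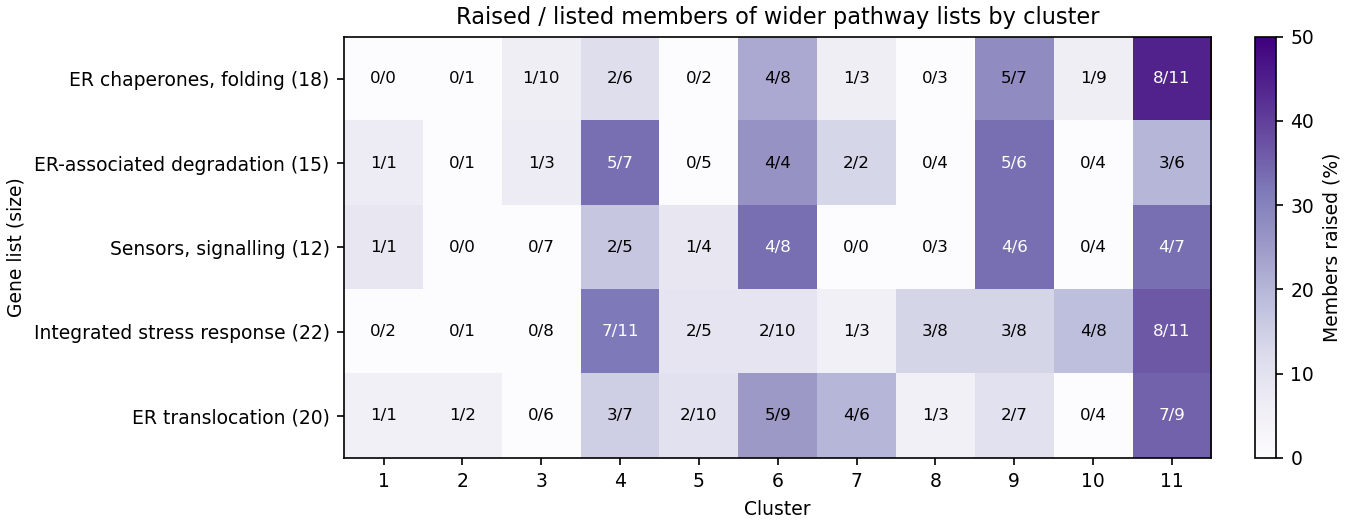
Members raised / listed of 5 wider pathway lists (rows, list size in brackets) in each cluster (columns), with colour for the percentage of the list raised. The largest share is that of ER chaperones in cluster 11, 8 of 18, while clusters 8 and 10 raised members mainly of the integrated stress response list.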

How the data were processed

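Cells of 2 fresh tumors were encapsulated on the inDrop platform and made into TruDrop libraries, per the labels' protocols. The submitters' processing notes name mm10, STAR 2.7.3a, Partek and DESeq2 3.5 without their roles. The authors deposited 1 table with, for each of 11 clusters, the names of genes, their fold on a linear scale and their p-value, all per the file headers; the fold is a ratio whose reference is unstated. The sources used here give no cell filters, doublet treatment, cluster sizes, depth or test.

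The members, the wider lists and the cell type markers were chosen with earlier results of these data known. Pairs of a gene and a cluster were counted as listed or raised, with Python 3.11.15 and pandas 2.3.3, beside the same count over all 18319 named genes. The deposited p was used only as a threshold, and no p is printed. Named were all 10 members and, of each wider list, the 3 members of largest raised fold; further list genes were chosen after their values were seen, and 1 gene that the rule takes is not reported here. Ero1lb is the older name of Ero1b. Gene positions are those of GENCODE M21 (mm10, 1-based), which held 17925 of the names and all 10 members. Promoters came from RefSeq (GRCm38.p6), where all 10 members matched. The counting and motif search were tested on simulated data. Alternatives were folds of at least 1.5 and 3, a p of at most 0.01, no p threshold and, chosen after seeing the data, leaving out cluster 10.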

Additional observations from a re-analysis of the deposited data

How the results depend on the processing

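With 9 raised pairs of a member and a cluster as reported (6 of folding genes, 3 of regulators), dropping the p threshold gave 17 (11 and 6), and a fold of at least 1.5 gave 14, with 7 on each side. A fold of at least 3 left 1 raised pair of the regulators, Ddit3 in cluster 10, and 5 of the folding genes. The order of the shares turned at a fold of at least 1.5, where 10.6% of folding pairs and 15.9% of regulator pairs were raised, against 12.9% of all pairs. A p of at most 0.01 gave 5 and 3. Without cluster 10 there were 7 raised pairs, 5 and 2. In cluster 5 the 2 raised members became 1 at a fold of at least 3 and 1 at a p of at most 0.01, and 4 without a p threshold, where 16.3% of all genes passed. In cluster 10 they numbered 5 without it, against 15.9%, and in cluster 4 they went from 0 to 3 at a fold of at least 1.5. Of 16 further counts, by cluster and by wider list, 9 moved by over 1.5 times without a p threshold, 6 at a fold of at least 3, 5 at a fold of at least 1.5 and 1, that of cluster 5, at a p of at most 0.01. No paired analysis was possible because the table holds no values per library. The depth behind each fold is unknown.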

Other observations

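Genes that carry new proteins into the ER, a step before folding, were counted in the same way. Of 20 genes of the translocation channel, the signal recognition particle and the signal peptidase, 16 were raised in at least 1 cluster, as were 78.0% of all named genes. By pairs of a gene and a cluster, 11.8% of the list were raised, against 10.0% of all pairs. Cluster 11 raised 7 of the 20, against 17.0% of all genes, with the signal recognition particle subunit Srp72 at 4.84, the translocon-associated Ssr1 at 4.36 and the channel subunit Sec61a1 at 3.15 per the authors' deposited table. Cluster 7 raised 4 of the 20, against 3.42% of all genes. These were the translocon-associated Ssr4 at 9.53, the signal recognition particle subunits Srp19 at 7.48 and Srp72 at 2.54, and the channel subunit Sec61b at 3.45 per the authors' deposited table. Cluster 10 listed 4 of the 20 and raised 0, against 18.9% and 4.90% of all genes. Cluster 5 listed 10 of the 20, against 20.6% of all genes, and raised Ssr1 at 2.62 and the signal peptidase subunit Spcs2 at 2.10 per the authors' deposited table.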
